A study of Rattus norvegicus with 2 samples.

Results

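Transcripts of the enzymes that carry glucose through glycolysis, glycogen and the pentose phosphate pathway were examined in rat microglia, the resident macrophages of the brain. The set held 30 enzyme genes and no transporters, and its members were all probe sets that the platform annotation gives to 1 of these genes alone. This rule found 38 of the 31099 probe sets on the array, for 28 of the 30 genes, and 3 of the 38 were array controls for hexokinase. The OGD array came from microglial cells of Sprague Dawley rats kept for 3 h without oxygen and glucose (oxygen-glucose deprivation, OGD), which mimics in culture the loss of blood flow in stroke. The resting array came from unexposed microglial cells of the same strain, and both groups were cultured in DMEM with foetal calf serum. There was 1 array per group, so replicates are lacking, and every value below describes these arrays alone, with no test. The study's design set 1.5-fold as the difference of interest.

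Glycolysis breaks glucose down to pyruvate in the cytosol and yields ATP without oxygen, and lactate dehydrogenase then turns pyruvate into lactate, which restores the NAD that the pathway needs. Glycogen is the stored form of glucose, and the pentose phosphate pathway turns glucose 6-phosphate into NADPH, used against oxidants and by the phagocyte oxidase, and into ribose for nucleotides. In many cell types the transcription factor HIF-1, which is stabilised when oxygen is low, raises the transcription of most glycolytic enzymes, and activated macrophages are known for a strong glycolytic flux.

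Values were linear intensities, and a value was taken as measured when it was above the median of the array's probe sets other than controls, 19.7 on the OGD array and 19.6 on the resting array. Probe sets differ in how brightly they bind, so levels are compared between arrays and not between genes. Where a gene had several probe sets the brightest on average stood for it, and 23 of the 28 enzymes with a probe set were measured, all 23 of them on both arrays. Every one of these 23 lay inside 1.5-fold, so 0 were higher and 0 lower by that much, where 0.0731% of all 9580 measured genes were higher and 0.0418% lower. Only Gys1 was past 1.2-fold, on the higher side, and 0 were past it on the lower side, against 3.56% and 3.97% of all measured genes. The median log2 difference, OGD minus resting, was 0.014 over the 23 enzymes and -0.0076 over all measured genes. Of the 23, 13 were higher on the OGD array, 8 were lower and 2 were equal, where 42.8% of all measured genes were higher, 51.3% lower and 5.87% equal. The equal ones, Gpi and Pgm2, took a sign under other scalings of the arrays, while the other 21 kept theirs. Both arrays had nearly the same distribution, and how they were normalized is not stated. These values therefore cannot tell whether a shift shared by most genes took place.

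**Figure D1:**
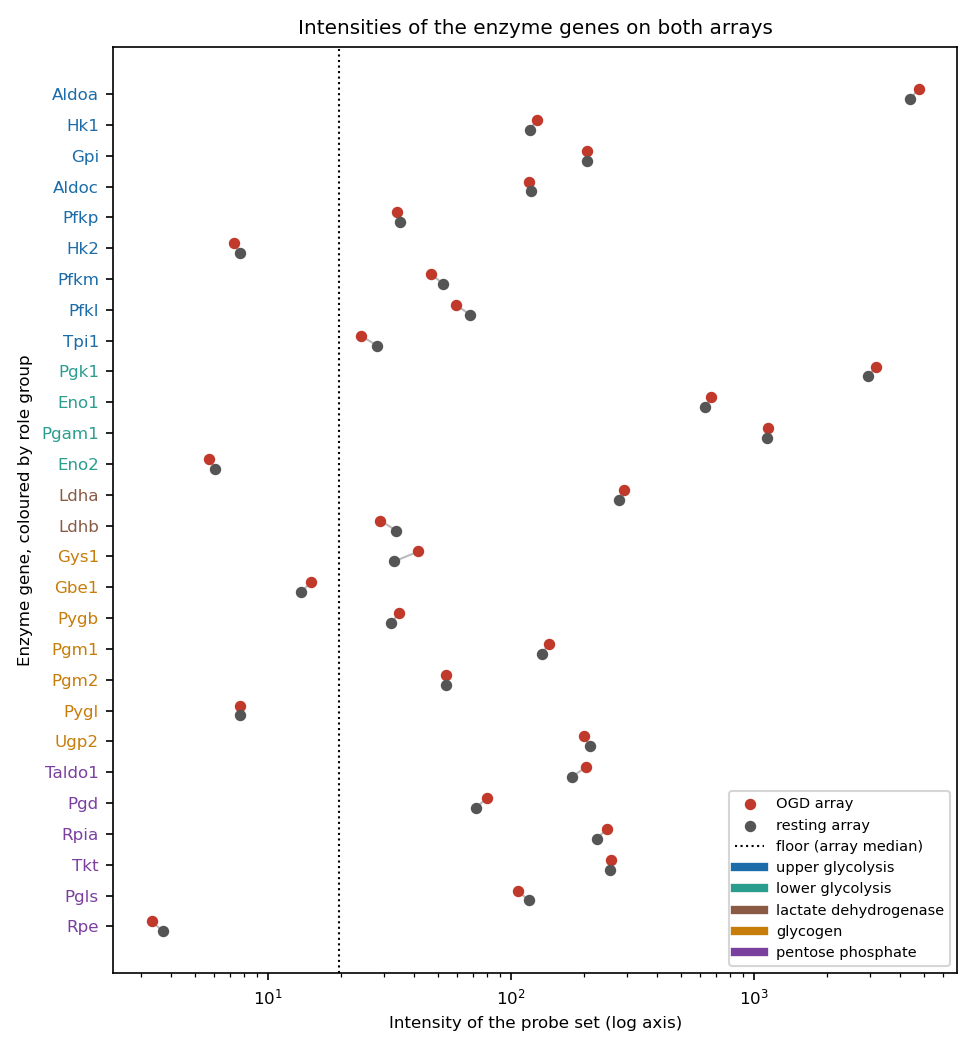
Intensity of the representing probe set of each of the 28 enzyme genes on a log axis, with the OGD array in red just above the resting array in grey, gene names coloured by role group, and the floor as a dotted line. The pairs of points nearly coincide for most genes, 5 genes lie left of the floor, and Gys1 has the widest gap among those to its right.

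The labelled cell type was set against marker genes. Of the 14 microglial markers with a probe set, 12 were above the floor on both arrays, among them Trem2, Cd68 and Itgam. The summed intensity of all 14 was 1364 on the OGD array and 1422 on the resting array. Of the 13 measured microglial markers 12 were lower on the OGD array and 1 was higher, with a median log2 difference of -0.096. Trem2 (582.6 on the OGD array and 604.2 on the resting array) and Cd68 (359.7 and 370.7) were bright. Itgam, the next brightest, had 56.5 on the OGD array and 60.9 on the resting array. The other measured ones, the higher one among them, were dimmer than Itgam, some of them near the floor. Of all measured genes 51.3% were lower and 42.8% higher. Among markers of other cells, 4 of 8 were above the floor on both arrays for astrocytes, 3 of 10 for neurons, 3 of 8 for the oligodendrocyte lineage, 3 of 7 for fibroblasts and 1 of 5 for endothelium. The 8 astrocyte markers summed to 271.3 on the OGD array and 270.0 on the resting array. Of the 4 measured ones 3 were higher on the OGD array and 1 was lower, with a median log2 difference of 0.28, opposite in sign to that of the microglial markers. Gfap was 1.35-fold higher, with 36.9 on the OGD array and 27.4 on the resting array. Slc1a2 (32.0 and 23.8) was also 1.35-fold higher and Gja1 (24.3 and 22.1) 1.10-fold higher. These 3 were dim, beside a floor of 19.7 on the OGD array and 19.6 on the resting array. Glul, the brightest, was 1.16-fold lower with 131.7 on the OGD array and 152.3 on the resting array. The 10 neuron markers summed to 262.9 on the OGD array and 258.6 on the resting array, and the 3 measured ones were Elavl3, 1.08-fold lower, Syn1, 1.18-fold higher, and Ina, 1.09-fold higher. In the oligodendrocyte lineage the sums were 154.9 on the OGD array and 153.0 on the resting array, with Mbp 1.17-fold higher and Sox10 and Cspg4 1.05-fold and 1.06-fold lower. For fibroblasts they were 214.0 on the OGD array and 223.7 on the resting array, with Col1a1 1.15-fold higher and Pdgfrb and Thy1 1.13-fold and 1.28-fold lower. For endothelium they were 92.6 on the OGD array and 79.8 on the resting array, with Vwf 1.22-fold higher. The astrocyte markers Aqp4, Aldh1l1, Slc1a3 and S100b and the other 7 neuron markers, Tubb3, Rbfox3 and Map2 among them, were under the floor on both arrays. Fewer cells of a type and less RNA per cell cannot be told apart in such samples, and the part of other cells in the enzyme values was not tested.

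HIF-1 binds DNA at a short core, ACGTG or GCGTG, and the promoters of the enzymes were searched for both on both strands. The windows were RefSeq promoters of the assembly GRCr8, from 250 bases before to 50 after each start site, with 32 windows for 28 of the 30 enzymes and none matched to Pgk1 and Pgls. At least 1 match was found in 22 of the 32 windows, or 68.8%, against 41.6% of all 33469 promoter windows and 60.7% of those with a GC content between the quartiles of the enzymes' windows. The core ACGTG was found in 46.9% of the enzymes' windows, 19.3% of all windows and 24.5% of those of like GC content. A match of these letters is a description of the window and not a binding site. The windows below are shown because they belong to classical hypoxia-responsive enzymes (Ldha, Aldoa and Eno1) and to the genes with the largest higher (Gys1) and lower (Tpi1) difference among the 23. Capitals mark matches on either strand, and sequences are in the gene's own direction, at chr1:106507842-106508141 (+) for Ldha, chr1:190836728-190837027 (-) for Aldoa, chr5:166003111-166003410 (+) for Eno1, chr1:105051666-105051965 (+) for Gys1 and chr4:159305039-159305338 (-) for Tpi1. For Aldoa, with 3 windows, and Eno1, with 2, the one holding ACGTG is shown.
Ldha: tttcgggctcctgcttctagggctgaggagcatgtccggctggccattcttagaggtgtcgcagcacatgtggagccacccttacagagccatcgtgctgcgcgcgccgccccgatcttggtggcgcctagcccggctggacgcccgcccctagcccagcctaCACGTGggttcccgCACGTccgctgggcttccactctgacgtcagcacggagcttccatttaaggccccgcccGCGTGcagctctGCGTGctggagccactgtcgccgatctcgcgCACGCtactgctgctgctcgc
Aldoa: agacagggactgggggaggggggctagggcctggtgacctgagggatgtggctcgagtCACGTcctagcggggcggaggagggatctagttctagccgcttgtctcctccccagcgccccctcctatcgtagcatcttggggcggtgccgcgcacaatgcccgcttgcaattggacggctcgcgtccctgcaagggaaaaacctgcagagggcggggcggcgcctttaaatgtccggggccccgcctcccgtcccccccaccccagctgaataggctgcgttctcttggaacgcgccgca
Eno1: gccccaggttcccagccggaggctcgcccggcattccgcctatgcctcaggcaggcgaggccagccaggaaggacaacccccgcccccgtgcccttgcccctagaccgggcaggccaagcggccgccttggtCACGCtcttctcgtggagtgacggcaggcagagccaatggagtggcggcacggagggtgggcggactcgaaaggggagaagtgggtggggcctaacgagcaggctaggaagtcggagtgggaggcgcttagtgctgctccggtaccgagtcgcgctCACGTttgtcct
Gys1: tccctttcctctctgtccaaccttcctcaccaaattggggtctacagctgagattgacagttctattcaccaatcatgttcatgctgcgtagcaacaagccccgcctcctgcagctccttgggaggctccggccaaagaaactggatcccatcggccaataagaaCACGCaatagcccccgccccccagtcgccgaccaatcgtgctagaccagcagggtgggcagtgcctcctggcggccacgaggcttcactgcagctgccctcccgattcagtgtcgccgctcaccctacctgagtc
Tpi1: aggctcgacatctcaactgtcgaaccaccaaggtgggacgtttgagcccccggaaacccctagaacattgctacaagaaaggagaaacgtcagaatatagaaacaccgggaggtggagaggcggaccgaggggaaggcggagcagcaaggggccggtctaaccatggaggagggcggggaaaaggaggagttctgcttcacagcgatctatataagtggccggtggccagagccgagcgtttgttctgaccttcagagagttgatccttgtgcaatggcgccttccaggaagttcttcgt
The Ldha window held 6 matches, the most of any of the enzymes' windows, and 2 of them overlap in the palindrome CACGTG. This palindrome was found in 3.1% of the enzymes' windows, 6.4% of all windows and 9.2% of those of like GC content. The 3 matches to ACGTG in the Ldha window began at positions -87, -86 and -73, counted with the start site at 0. The Aldoa window held 1 match, that of Eno1 held 2, that of Gys1 held 1, a GCGTG on the opposite strand, and that of Tpi1 held 0. On the arrays the differences of these genes, given below, were at most 1.26-fold in size. Tpi1 was the only one of the 5 that was lower on the OGD array. It was chosen for that difference, as Gys1 was for its higher one, so the 5 windows cannot relate matches to direction. Whether matches went with direction over all the enzymes was not tested.

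The upper steps of glycolysis prime glucose and split it into triose phosphates. Of their 8 measured enzymes 2 were higher, 5 lower and 1 equal on the OGD array, with a median difference of -0.036. Over all measured genes 42.8% were higher and 51.3% lower, and the counts of the other groups below stand beside the same shares. Hk1, the hexokinase that phosphorylates glucose in brain, had an intensity of 127.9 on the OGD array and 119.8 on the resting array, a difference of 0.09. Its other probe set (1398725_at) had 19.3 on the OGD array, under the floor, against 22.1 on the resting array, so the probe sets of Hk1 did not share a direction. Of the 3 hexokinase control probe sets, that for the middle of the transcript was above the floor, with 33.9 on the OGD array and 34.0 on the resting array. The control for the 3′ end had 16.8 and that for the 5′ end 6.16 on the OGD array, against 16.6 and 5.64 on the resting array. Hk2, the hypoxia-inducible hexokinase, was under the floor on both arrays, with 7.26 on the OGD array and 7.66 on the resting array. Hk3, a hexokinase of blood cells, had no probe set of its own.

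Gpi, which converts glucose 6-phosphate to fructose 6-phosphate, had exactly the same intensity, 205.4, on the OGD array and on the resting array. Exactly equal values were found for 3 of the 38 probe sets of the enzymes, those of Gpi, Pgm2 and Pygl, and for 8.69% of all probe sets on the array. Whether such values show an equal transcript level was not tested.

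Phosphofructokinase catalyses the committed step of glycolysis and has liver, muscle and platelet forms, and the representing probe sets of all 3 were lower on the OGD array. Pfkl, the liver form, had 59.4 on the OGD array and 68.2 on the resting array, which is 1.15-fold lower. Pfkp, the platelet form, had 33.9 on the OGD array and 35.0 on the resting array, a difference of -0.044. Pfkm, the muscle form, had 47.2 on the OGD array and 52.6 on the resting array in its representing probe set, a difference of -0.16. Its other probe sets were higher on the OGD array, with 48.2 against 46.5 and 36.9 against 34.1 on the resting array. Over the 3 probe sets of Pfkm the mean difference was 0.0021 ± 0.14 (SD over probe sets), so the direction of Pfkm depended on the probe set.

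Aldolase splits fructose bisphosphate, and its A form is the one of muscle and most tissues. Aldoa had 4775 on the OGD array and 4402 on the resting array, 1.08-fold higher, with a log2 difference of 0.12. Aldoc, the brain form, known in brain as an enzyme of astrocytes, had 118.6 on the OGD array and 120.9 on the resting array, a difference of -0.028. Tpi1, the isomerase of the triose phosphates, had 24.2 on the OGD array and 28.2 on the resting array, 1.17-fold lower, and both values were close to the floor. No probe set outside the array's controls named Gapdh, the next enzyme, alone. Its 3 control probe sets were higher on the OGD array, by 0.11 at the 3′ end, 0.13 in the middle and 0.06 at the 5′ end, and a probe set it shares with Gapdhl10 was higher by 0.09.

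The lower steps, from phosphoglycerate kinase to pyruvate kinase, had all 3 measured enzymes higher on the OGD array, with a median difference of 0.08. All 3 were in the brightest of 4 classes of measured genes ranked by mean intensity. In that class 35.5% of genes were higher and 61.8% lower. Pgk1, which makes the first ATP of the pathway, had 3184 on the OGD array and 2956 on the resting array, 1.08-fold higher. This probe set (1387361_s_at) has a suffix for probes shared between transcripts. Without probe sets of such suffixes the median of the lower steps was 0.045 over 2 genes. The other 2 probe sets of Pgk1 were under the floor on both arrays, at 3.41 and 3.70 on the OGD array and 3.58 and 4.26 on the resting array. Pgam1, the phosphoglycerate mutase of brain and most tissues, had 1144 on the OGD array and 1134 on the resting array, a difference of 0.014. Eno1, the general form of enolase, had 667.8 on the OGD array and 633.0 on the resting array, 1.05-fold higher. Eno2, the enolase used as a neuron marker, was under the floor on both arrays, at 5.75 on the OGD array and 6.07 on the resting array. Pkm, the pyruvate kinase of most tissues, had no probe set of its own, and the 1 that it shares with the pseudogene Pkm-ps20 had 160.0 on the OGD array and 149.7 on the resting array.

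The lactate dehydrogenase subunits lay on opposite sides. Ldha, the subunit that favours lactate formation, had 292.5 on the OGD array and 277.8 on the resting array, 1.05-fold higher. Ldhb, the heart-type subunit, had 29.1 on the OGD array and 33.8 on the resting array, 1.16-fold lower. Each gene had 1 probe set, so neither direction had a second measurement.

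**Figure D2:**
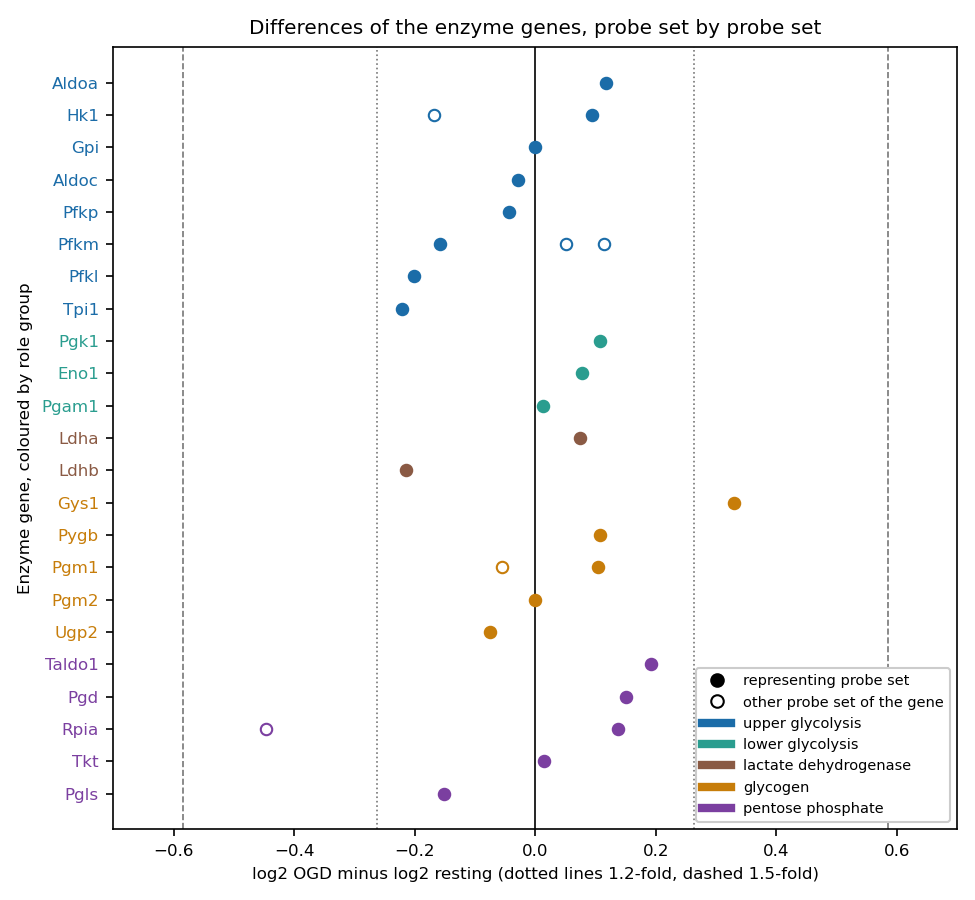
log2 OGD minus log2 resting for each probe set of the 23 measured enzymes, with filled points for the representing probe set and open points for the gene's other probe sets above the floor on at least 1 array; values under the floor are set to it. Only Gys1 and the second probe set of Rpia lie beyond the dotted 1.2-fold lines, on opposite sides, and no point reaches the dashed 1.5-fold lines.

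Of the glycogen enzymes 5 of 7 were measured, of which 3 were higher, 1 was lower and 1 was equal, with a median difference of 0.10. This median was 0.024 when each gene's probe sets were averaged, and 0.044 over 4 genes with the floor at the 70th percentile. Gys1, the glycogen synthase of tissues other than liver, had 41.7 on the OGD array and 33.2 on the resting array, 1.26-fold higher with a log2 difference of 0.33. When all measured genes were ranked by mean intensity and cut into 4 classes of 2395, 2.30% of the genes in the class of Gys1 were at least as high. The share is given because Gys1 was the highest of the 23 enzymes, so it is no test. Gys1 had 1 probe set, and with the floor at the 70th percentile, above its resting value, the difference was bounded at 0.09. Ugp2, which makes the UDP-glucose that glycogen synthase uses, had 200.6 on the OGD array and 211.2 on the resting array, a difference of -0.07. Gbe1, the branching enzyme, was under the floor, at 15.1 on the OGD array and 13.7 on the resting array.

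Glycogen breakdown was represented by the phosphorylases. Pygb, the brain form, had 34.7 on the OGD array and 32.2 on the resting array, 1.08-fold higher. Pygl, the liver form, was under the floor, with 7.71 on both arrays. Pgm1, which interconverts glucose 1-phosphate and glucose 6-phosphate, had 143.8 on the OGD array and 133.9 on the resting array, 1.07-fold higher, but 76.2 against 79.2 in its other probe set, a difference of -0.056. Pgm2, a phosphoglucomutase relative that also acts on phosphopentoses, had 54.0 on both arrays.

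Of the pentose phosphate enzymes 5 of 6 were measured, of which 4 were higher and 1 was lower on the OGD array, with a median difference of 0.14. The oxidative branch, which makes NADPH, held the lower one. Pgls, the lactonase, had 106.7 on the OGD array and 118.6 on the resting array, 1.11-fold lower, and Pgd, the next enzyme, a dehydrogenase that forms NADPH, had 79.7 on the OGD array and 71.8 on the resting array, 1.11-fold higher. In the non-oxidative branch, which links pentoses back to glycolysis, Taldo1, the transaldolase, had 203.3 on the OGD array and 177.9 on the resting array, 1.14-fold higher. In its class of brightness 3.51% of genes were at least as high as Taldo1, which was the highest of the 12 enzymes there. Tkt, the transketolase, had 257.6 on the OGD array and 255.0 on the resting array, a difference of 0.014.

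Rpia, the isomerase that forms ribose 5-phosphate, gave opposite results in its 2 probe sets. The representing probe set (1376559_at) had 248.4 on the OGD array and 225.9 on the resting array, 1.10-fold higher. The other (1389468_at) had 44.8 on the OGD array and 61.0 on the resting array, 1.36-fold lower, which was the largest difference among all measured probe sets of the enzymes. The mean of both was -0.16 ± 0.41 (SD, 2 probe sets), so no direction can be given for Rpia, and with this mean the median of the pentose phosphate enzymes was 0.014. Rpe, the epimerase, was under the floor, at 3.33 on the OGD array and 3.70 on the resting array.

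The probe sets of a gene gave the only error that could be estimated. Over 1902 genes with several probe sets measured on each array, the SD within a gene was 0.15. It was 0.10 for probe sets in the brightest of the 4 classes and 0.18 for those in the dimmest. A difference larger than the 0.15 of all classes together was seen for 8 of the 23 enzymes, or 34.8%, against 29.9% of all measured genes. These were Gys1, Taldo1, Pgd, Pgls, Pfkm, Pfkl, Ldhb and Tpi1. The list depends on the SD used. Pfkm, at -0.158, lay inside the 0.159 of its own class. Aldoa, Pgk1, Pgm1 and Rpia lay beyond the 0.096 of theirs, the brightest, though Pgm1 and Rpia were lower in their second probe set. This SD covers noise that differs between probe sets and not the spread between cultures. Of 25 measured probe sets of the enzymes that were not equal, 11 had a difference found to 6 decimals in at least 1 other probe set of the array. Among them were those of Pgd, Pfkl, Tpi1 and Gys1. Such recurrence was common on the whole array, with 46.4% of the 14033 probe sets counted in the same way.

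The enzymes of the brightest class differed in direction from those of the other classes, with no steady trend over the classes. In the brightest class of measured genes, with a mean intensity above 122.9, 10 of the 12 enzymes were higher on the OGD array, 1 was lower and 1 was equal, where 35.5% of all 2395 genes of that class were higher and 61.8% lower. These 12 were Aldoa, Hk1, Gpi, Pgk1, Pgam1, Eno1, Ldha, Pgm1, Ugp2, Taldo1, Rpia and Tkt, with Ugp2 the lower one, and their median difference was 0.09 against -0.035 for the class. In the other 3 classes 3 of the 11 enzymes were higher and 7 lower, where 45.3% of genes were higher and 47.8% lower. Pgd, Gys1 and Pygb were the 3 that were higher there. From the dimmest class up, 0 were higher and 2 lower, then 2 and 2, then 1 and 3. With quantile normalization or removal of a loess trend on brightness, 11 of the 12 bright enzymes were higher, Gpi turning from equal to higher, and the share of all genes of the class that were higher became 47.2% and 48.1%. The second probe sets of Hk1, Pgm1 and Rpia, which are 3 of the 12, were lower on the OGD array. The differences of the 12 bright enzymes are all under 1.15-fold, and 1 array per group leaves them without a replicate check.

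**Figure D3:**
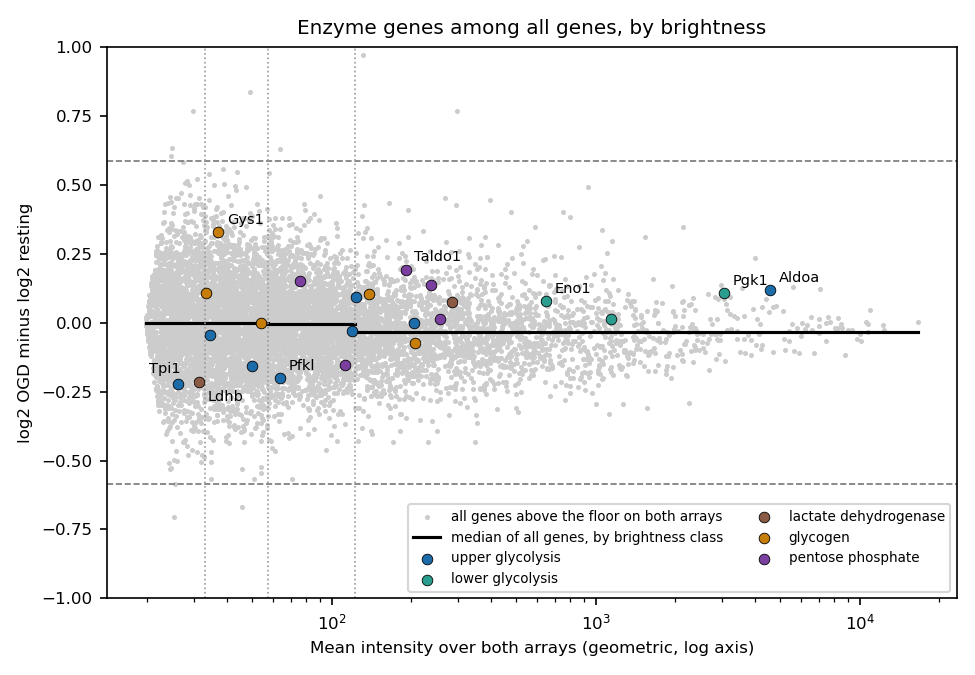
log2 OGD minus log2 resting against the mean intensity over both arrays for all genes above the floor on both arrays (grey) and the 23 enzymes (coloured by role group), with the median of all genes in each class of brightness as a black line. Most enzymes in the brightest class lie above the black line, which is at -0.035 there, while Tpi1, Ldhb and Pfkl lie below it at lower brightness.

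The enzymes were also divided by whether they are known as HIF-1 targets. Of 16 such enzymes 13 were measured, with 8 higher, 4 lower and 1 equal and a median difference of 0.07, and of the 14 others 10 were measured, with 5 higher, 4 lower and 1 equal and a median of 0.0072. The 4 known targets that were lower were Tpi1, Pfkl, Pfkp and Aldoc. Over all measured genes 42.8% were higher and 51.3% lower. The groups were not matched for brightness. Hk1 and Pgm1 among the higher targets, and Rpia among the higher others, were lower in their second probe set. Pfkm, lower among the others, was higher in its other probe sets. Whether being a HIF-1 target went with direction was not tested.

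Other genes of the same pathways differed in both directions, with 0 of 39 measured past 1.5-fold. Of all measured genes only 0.0731% were higher and 0.0418% lower by that much. Past 1.2-fold, 2 were lower in the glycolysis and gluconeogenesis list and 1 in the pentose phosphate list. On the higher side, 1 was past it in the pyruvate dehydrogenase list and 1 in the glycogen list. Of all measured genes 3.56% were higher and 3.97% lower by 1.2-fold. Among other enzymes and regulators of glycolysis and gluconeogenesis, 14 of 25 were measured, 7 higher and 7 lower, with a median difference of -0.021. The kinases and phosphatases that set fructose 2,6-bisphosphate, an activator of phosphofructokinase, lay on both sides. Pfkfb4 had 21.9 on the OGD array, near the floor, and 28.2 on the resting array, 1.28-fold lower. Its other probe set had 16.8 on both arrays, under the floor. Pfkfb3 had 77.2 on the OGD array and 68.7 on the resting array, 1.12-fold higher. The other probe sets of Pfkfb3 were under the floor on both arrays. Bpgm, which makes 2,3-bisphosphoglycerate, was 1.17-fold higher and Ldhd, a D-lactate dehydrogenase, 1.11-fold higher in 1 probe set, while its second one had a difference of -0.07. Eno3, the muscle enolase, had a difference of -0.27, and Pck2, the mitochondrial enzyme that makes phosphoenolpyruvate, was lower in both of its probe sets, with differences of -0.16 and -0.23.

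The pyruvate dehydrogenase complex turns pyruvate into acetyl-CoA inside the mitochondrion, and its kinases switch it off. Of this list 8 of 11 genes were measured, 5 higher and 3 lower, with a median of 0.034. Pdk1, the hypoxia-inducible kinase, was under the floor, with 18.3 on both arrays. Pdp1, the phosphatase that switches the complex on, had 28.1 on the OGD array and 22.5 on the resting array, 1.24-fold higher. The kinase Pdk2 was lower in both of its probe sets, with differences of -0.20 and -0.27, while Pdk4 was 1.14-fold higher, and these intensities were all near the floor. The complex's own subunits Dld and Pdhx had differences of 0.13 and -0.18, and Pdha1 had -0.09.

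Of the other glycogen genes 11 of 20 were measured, 6 higher and 5 lower, with a median of 0.014. Stbd1, a glycogen-binding protein, had 56.0 on the OGD array and 45.3 on the resting array, 1.24-fold higher. Epm2a, the glycogen phosphatase laforin, was 1.19-fold lower and Gsk3b, a kinase that inhibits glycogen synthase, 1.14-fold lower. Phka2, a regulatory subunit of phosphorylase kinase, was higher by 0.13 and Phka1, its relative, lower with a difference of -0.12. Pgm2l1, a phosphoglucomutase relative, had 0.15 in 1 probe set and -0.08 in the other. Of the remaining pentose phosphate and phosphoribosyl genes 6 of 11 were measured, 2 higher and 4 lower, with a median of -0.039. H6pd, which makes NADPH in the endoplasmic reticulum, was 1.12-fold higher, Prpsap1, a protein associated with phosphoribosyl pyrophosphate synthetase, was higher by 0.033, and the related Prpsap2 was 1.24-fold lower. Rbks, the ribokinase, was 1.16-fold lower, and Prps1, a synthetase of phosphoribosyl pyrophosphate, was lower in both of its probe sets, with differences of -0.053 and -0.19.

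**Figure D4:**
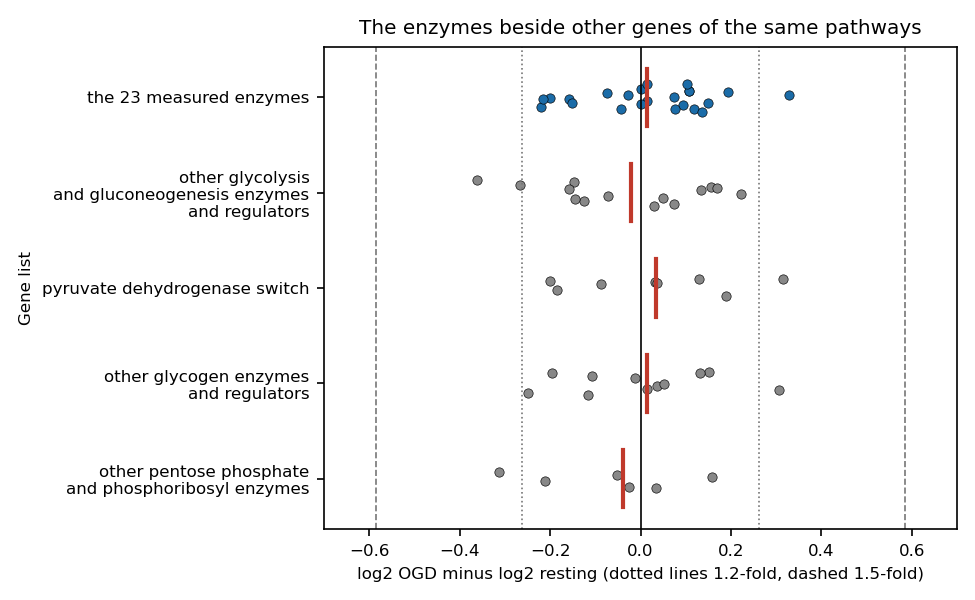
log2 OGD minus log2 resting for the 23 measured enzymes (blue) and for measured genes of 4 other lists of the same pathways (grey), with the median of each list as a red bar. Medians run from -0.039 to 0.034 and no gene reaches the dashed 1.5-fold lines.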

How the data were processed

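The authors deposited intensities, with each array's probe sets summarised to a single number. The scale is linear, judged by the range, 2.73 to 19778 on the OGD array and 2.75 to 19692 on the resting array. Per the labels' protocols, TRIzol RNA was labelled through oligo(dT)-primed cDNA with biotinylated nucleotides. How the values were background-corrected, summarised and normalized is not stated in the labels or the file. The number of arrays limits the precision.

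The arrays were grouped by their labels. Besides 57 controls there were 31042 probe sets, of which 20826 named a single gene, 14217 genes in all. Symbols follow RefSeq's table of GRCr8, matched by Entrez ID for 20758 of the 20826. The files name no build. The floor was the array's 50th percentile, and lower values were set to it. Folds are OGD over resting, counted at 1.5-fold and 1.2-fold without a test. The code, in Python 3.11.15 with statsmodels 0.14.6, was checked on simulated arrays. Alternatives were other floors, scalings, probe set choices and a pseudocount.

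By rule the text names all 30 enzymes, up to 3 genes of each other pathway list in each direction, and Gapdh, Pfkfb3, Pfkfb4, Pdk1 and Bpgm; 1 other gene of the rule is not reported here. The rule for cell type markers was the brightest 3 of a list (for endothelium only the measured one is given), and Gja1 and the markers under the floor are named outside it. The members, lists and rules were chosen with earlier results of these data known.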

Additional observations from a re-analysis of the deposited data

Results flagged for a closer look

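The comparison left out probe sets annotated to an enzyme together with other genes, and 3 of these were above the floor and higher on the OGD array. The probe set shared by Pkm and its pseudogene Pkm-ps20 had 160.0 on the OGD array and 149.7 on the resting array, a log2 difference of 0.10. A probe set that the annotation gives to Pgd, Cenps, Kif1b and Cort had 32.2 on the OGD array and 29.8 on the resting array, a difference of 0.11. Another with the same 4 genes had 101.2 on the OGD array and 98.2 on the resting array, a difference of 0.04. The remaining 2 such sets had 42.5 on both arrays and, under the floor, 5.53 on the OGD array against 5.91 on the resting array.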

How the results depend on the processing

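There were 13 alternatives, 1 of them added after the data were seen (keeping the hexokinase controls). Over these, 138 of 154 summary values stayed close to those reported. Of 229 values of single genes, 222 moved by less than the SD within a gene. These counts do not measure how stable the results are, because several alternatives could change little. All 23 enzymes were above the floor on both arrays, so requiring this changed no value. Enzymes with 1 measured probe set could not change with the choice of probe set. The count past 1.5-fold was 0 in both directions under each alternative. With the floor at the 70th percentile the median difference of the enzymes was 0.074, the number lower was 5 and lactate dehydrogenase rested on Ldha alone at 0.074, with 19 enzymes measured. At that floor 0 were past 1.2-fold on the higher side, because the resting value of Gys1 was raised to the floor and its difference became 0.09. Removal of the loess trend gave a median of 0.049. When each gene's probe sets were averaged, the medians were 0.024 for glycogen and 0.014 for pentose phosphate enzymes. The next brightest probe sets measured 4 genes, Hk1, Pfkm, Pgm1 and Rpia, with a median of -0.11, 1 higher and 3 lower, 0 and 1 past 1.2-fold on the higher and lower side, and -0.056 for glycogen (Pgm1) and -0.45 for pentose phosphate (Rpia). Counted per probe set, with or without the hexokinase controls, 1 value was past 1.2-fold on the lower side. Each of these 4 genes had the opposite sign in its next probe set, and the mean had it for Hk1, Pfkm and Rpia; the cause was not tested. Under 4 scalings 21 of 23 enzymes kept their sign, the exceptions being Gpi and Pgm2, equal as deposited. No paired analysis was possible because there was 1 array per group.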

Other observations

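For 889 probe sets, or 2.86%, the values on both arrays lay a whole multiple of 0.25 units above the same offset, to within 2e-05, and these included Gys1, the representing probe set of Pgk1 and the other probe set of Pgm1. Their steps between the arrays were 8.5 units for Gys1, 227.75 for Pgk1 and -3 for Pgm1, OGD minus resting.

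Many differences recurred exactly. Among 14033 probe sets measured on each array and not equal between them, 46.4% had a log2 difference found to 6 decimals in at least 1 other probe set, and 1 value was shared by 36. Of the 25 such probe sets of the enzymes, 11 had a recurring difference. That of Pgd, 0.15, was also found in 10 other probe sets, and that of Pfkl, -0.20, in 8. Those of Aldoa, Eno1, Ldha and Taldo1 were found in no other probe set.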
